A study of Mus musculus with 2 samples.

Results

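The replication-independent histone variants measured here are 10 genes that lie outside the Hist gene clusters: H3f3a, H3f3b, H2afz, H2afv, H2afx, H2afj, H2afy, H2afy2, H1f0 and H1fx. They were taken by name from a fixed list, and all 10 were found among the 43346 Ensembl genes of the tables. RNA was sequenced from G1E-ER4, an immortalized mouse erythroid line. Its parent line G1E lacks Gata1, and G1E-ER4 expresses a fusion of GATA1 with an estrogen receptor ligand-binding domain, through which estradiol turns GATA1 activity on. The labels describe the cells as having Gata1 restored and as induced to differentiate with estradiol, and they give the source as male, postnatal and of age 0 days, with no dose or duration of estradiol. There is 1 group of 2 libraries, biological replicates 1 and 2, from 1 line. Both libraries name the same biosample, so the spread between them may be technical, and no untreated or parental cells enter these data.

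Most core histone genes are transcribed in S phase from clusters and encode the histones placed behind the replication fork. Their mRNAs end in a stem-loop and mostly carry no poly(A) tail. Variant genes are mostly transcribed through the cell cycle, usually as polyadenylated mRNA with introns. Among the genes listed here, the coding models of H2afx, H2afj, H1f0 and H1fx have 1 exon and so no intron. Variant proteins are exchanged into chromatin outside replication by dedicated chaperones and remodellers. H3.3 marks active genes and regulatory elements, H2A.Z flanks start sites, H2A.X is phosphorylated at DNA breaks, macroH2A carries a large domain beside its histone fold and is associated with silent chromatin, and H1.0 is a linker histone known for accumulating in differentiated cells. Erythroid maturation ends in condensation of the chromatin and, in mammals, loss of the nucleus.

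The coding sequences show how far RNA reads can separate the paired genes. H3f3a and H3f3b both encode H3.3, in 136 codons each. Of 408 coding bases 95 differ (76.7% identical), 83 codons differ, and 0 of them change the residue. The first 90 coding bases of each are given below, 5′ to 3′ from the models H3f3a-207 and H3f3b-201 of GENCODE M21, with the bases that differ between the genes in capitals. They are shown because the same protein start is written with 20 different bases.
H3f3a: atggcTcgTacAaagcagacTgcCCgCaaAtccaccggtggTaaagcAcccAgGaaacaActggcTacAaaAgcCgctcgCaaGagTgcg
H3f3b: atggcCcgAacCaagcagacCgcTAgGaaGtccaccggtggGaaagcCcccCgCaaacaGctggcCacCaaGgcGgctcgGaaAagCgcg
Neither pair of coding sequences shares any stretch of 31 bases (0 of 378 such stretches in H3f3a and 0 of 354 in H2afz).

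H2afz and H2afv encode the H2A.Z proteins H2A.Z.1 and H2A.Z.2, in 128 codons each. Their coding sequences differ at 80 of 384 bases (79.2% identical) and in 73 codons, of which 3 change the residue. The first 90 coding bases, from the models H2afz-201 and H2afv-202 and marked in the same way, differ at 19 bases and hold 1 of those 3 changes.
H2afz: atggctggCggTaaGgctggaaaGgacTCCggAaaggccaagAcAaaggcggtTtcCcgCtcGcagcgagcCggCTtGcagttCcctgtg
H2afv: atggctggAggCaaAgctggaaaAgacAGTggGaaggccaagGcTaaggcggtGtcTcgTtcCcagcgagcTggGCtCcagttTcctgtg

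Levels are in TPM, the authors' measure of abundance per transcript length, scaled to the same total in each library. Genes that reached 1 TPM in replicate 1 and in replicate 2 count as detected. The estimated counts summed to 68901065 for replicate 1 and to 51923117 for replicate 2. By this rule 8376 of 21474 protein-coding genes (39.0%) were detected. All 8 erythroid markers listed were detected, led by Hba-a1, Hbb-bs and Gata1. The lowest of them, Alas2, was just over the threshold at 1.44 and 2.00 TPM, below the median of 20.5 TPM of detected protein-coding genes. Of 21 markers of 7 other cell types 0 were detected, the highest being the megakaryocyte gene Pf4 at 0.74 and 1.11 TPM.

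Of the 10 variant genes 7 were detected, and they were abundant: the median of all 10 was 285.4 TPM, against 0.025 TPM for all protein-coding genes and 20.5 TPM for the detected ones. Together they held 0.583% of all TPM in replicate 1 and 0.716% in replicate 2, a mean of 0.649 ± 0.0942% (SD, n = 2). H2afz alone made up 50.8% and 55.7% of that sum. The macroH2A2 gene and both linker histone variants were not detected.

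H3f3a (ENSMUSG00000060743, chromosome 1, 180800832 to 180813943, minus strand in mm10) had 952 TPM in the first replicate and 1378 TPM in the second, on average 1165 ± 301 TPM (SD, n = 2). It ranked 105 among the 8376 detected protein-coding genes. H3f3b (ENSMUSG00000016559, chromosome 11, 116021912 to 116027962, minus strand) had 313 and 439 TPM, on average 376 ± 88.7 TPM (SD, n = 2), at rank 359. Both H3.3 genes were thus high in both libraries, both had the larger TPM in replicate 2, and their ranges did not overlap.

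H3f3a gave 75.2% and 75.8% of the TPM of the H3.3 pair, a mean of 75.5 ± 0.435% (SD, n = 2). The share was nearly the same in both libraries although each gene's TPM differed. Of the pair's estimated counts it gave 56.1% and 61.7%. The difference between these shares comes with transcript length, since TPM divides the H3f3a counts by 664 and 673 effective bases and the H3f3b counts by 1579 and 1313. Restricted to transcript models labelled coding, an alternative chosen after the values were seen, H3f3a held 172 and 225 TPM and H3f3b 246 and 234 TPM, and the H3f3a share was 45.1 ± 5.62% (SD, n = 2). Which H3.3 gene was higher therefore depended on the models counted.

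H2afz (ENSMUSG00000037894, chromosome 3, 137864487 to 137866922, plus strand) was the highest variant gene, with 2959 TPM in the first replicate and 3988 TPM in the second (mean 3473 ± 727 TPM, SD, n = 2), and it ranked 34 among detected protein-coding genes. H2afv (ENSMUSG00000041126, chromosome 11, 6427229 to 6444443, minus strand) stood at 37.6 and 74.9 TPM (mean 56.2 ± 26.4 TPM, SD, n = 2), at rank 2307. Transcripts of the H2A.Z pair came almost wholly from H2afz, with 98.7% and 98.2% of the pair's TPM and 96.6% and 95.4% of its counts. The level of H2afz was 78.8 times that of H2afv in replicate 1 and 53.2 times in replicate 2.

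H2afx (ENSMUSG00000049932, chromosome 9, 44334694 to 44336077, plus strand), which encodes the H2A.X of the DNA break response, stood at 867 and 692 TPM (mean 780 ± 123 TPM, SD, n = 2), at rank 160. H2afj (ENSMUSG00000060032, chromosome 6, 136808244 to 136810074, plus strand), the gene of H2A.J, stood at 224 and 166 TPM (mean 195 ± 41.2 TPM, SD, n = 2), at rank 762. Both were the reverse of the H3.3 and H2A.Z genes in order, with the larger value in replicate 1. Each has a single transcript model in the tables.

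H2afy (ENSMUSG00000015937, chromosome 13, 56073619 to 56136361, minus strand), the macroH2A1 gene, stood at 475 and 423 TPM (mean 449 ± 37.0 TPM, SD, n = 2), at rank 298. Its paralog H2afy2 (ENSMUSG00000020086, chromosome 10, 61738665 to 61784147, minus strand), the macroH2A2 gene, had 1 count in replicate 1 and 0 in replicate 2. All but a trace of the pair's TPM, 99.998% in replicate 1 and 100% in replicate 2, was thus H2afy.

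H1f0 (ENSMUSG00000096210, chromosome 15, 79028450 to 79030504, plus strand), the gene of linker histone H1.0, had 0 counts in both libraries. H1fx (ENSMUSG00000044927, chromosome 6, 87980421 to 87981637, minus strand), the gene of H1.10, had 1 count in replicate 1 and 0 in replicate 2. With 0 counts a gene may still hold up to 3, a share of up to 4.35e-06% of all counts of replicate 1 and 5.78e-06% of those of replicate 2, where only counting error is covered. Neither gene was detectable at this depth, so no share within the H1 variant pair was formed.

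**Figure D1:**
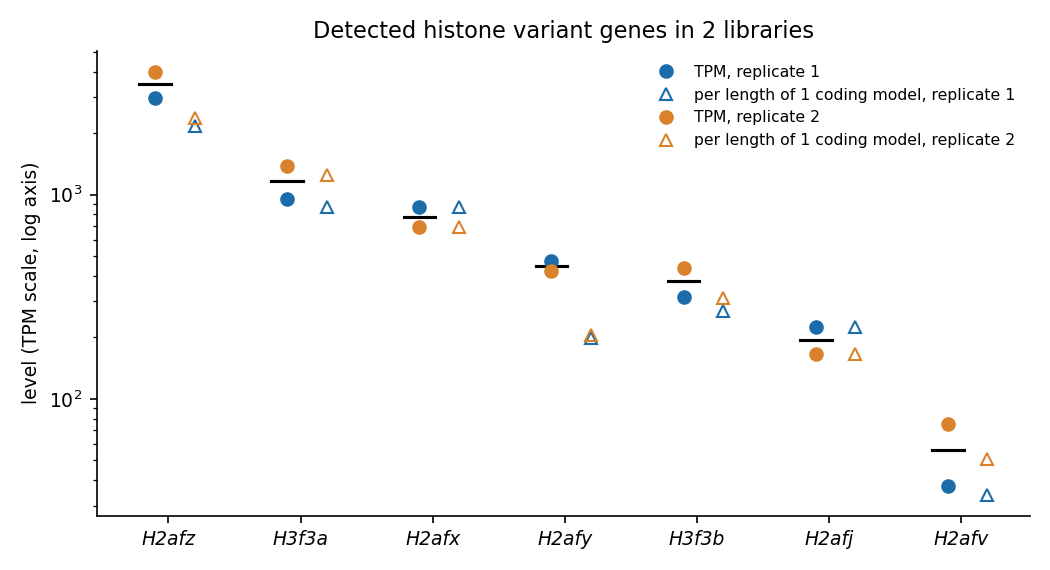
Level of the 7 detected histone variant genes on a log axis, in TPM (filled circles, with the mean as a bar) and as counts divided by the length of 1 coding model per gene (open triangles), for replicate 1 in blue and replicate 2 in orange. H2afz lies on top in both measures, H2afv at the bottom, and H2afy lies lower by the second measure. H2afy2, H1f0 and H1fx, with at most 1 count, are not drawn.

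By mean TPM the order was H2afz, H3f3a, H2afx, H2afy, H3f3b, H2afj and H2afv, followed by the 3 genes that were not detected. The ranges of neighbours in this order did not overlap except for H2afy and H3f3b, which changed places between the libraries (H2afy was 1.52 times H3f3b in replicate 1 and 0.964 times in replicate 2), and for the undetected genes. H3f3a and H2afx were close in replicate 1, at a ratio of 1.10, and apart in replicate 2, at 1.99. With counts divided by the length of 1 coding model of each gene, a measure added after the values were seen, H2afy stood at 197.7 and 205.5 (mean 201.6 ± 5.52, SD, n = 2) on the TPM scale, below H3f3b at 270 and 312. Its models labelled coding held 29.0 and 72.5 TPM. H2afz stood at 2166 and 2366 by that measure and remained the highest.

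To ask whether the variant genes differed between the libraries beyond counting error, estimated counts were set against library sizes scaled by TMM, edgeR's trimmed mean, in an exact two-sided binomial test per gene. This test compares 2 libraries of 1 group, not conditions, and its p-values hold counting error alone. Of 10863 genes that averaged 10 counts or more, 69.1% were called at a Benjamini-Hochberg adjusted p of 0.05, so a call says little by itself. All 7 detected variant genes were called. In 5 the scaled counts were higher in replicate 2, against 34.7% of all genes, and in 2 they were higher in replicate 1, against 34.4%. None differed by 2-fold or more, as 9.13% of all genes did. With library totals in place of TMM the median log2 ratio of all genes was -0.12 instead of -0.01, and 3065 genes were called higher in replicate 2 and 4756 in replicate 1, against 3769 and 3733, while the variant genes again split into 5 and 2. The median absolute log2 ratio was 0.31 for the 7 genes and 0.30 for all genes tested. In such bulk libraries, fewer cells that express a gene and less RNA per cell cannot be told apart.

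The genes with the most different counts were H2afv and H3f3a. H2afv had 3016 counts in replicate 1 and 3398 in replicate 2, in the larger and the smaller library, and its scaled ratio of replicate 2 to replicate 1 was 1.61 (log2 0.69, exact binomial test, adjusted p = 1.21e-79). H3f3a had 38055 and 41687 counts, a scaled ratio of 1.56 (log2 0.65), with an adjusted p too small to be represented. These 2 genes also passed when a coefficient of variation of 0.1 between libraries was added to counting error, with an adjusted p of 0.00809 for H2afv and 0.0125 for H3f3a from edgeR's exact test, and the other 5 did not. Under that setting 18.8% of all genes were called, 14.1% higher in replicate 2 and 4.69% higher in replicate 1, so both calls lie in the commoner direction.

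H3f3b, with 29805 and 25929 counts, had a log2 ratio of 0.31, and H2afz, with 84940 and 70528 counts, one of 0.25. H2afx had 63974 and 38524 counts and a log2 ratio of -0.22, and H2afj had 22485 and 12506 counts and one of -0.33. The genes of the H3.3 and H2A.Z pairs were thus all higher in replicate 2 while H2afx and H2afj were lower there.

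H2afy was the one gene whose direction depended on the scale. Its 22474 and 17555 counts, scaled by TMM, gave a log2 ratio of 0.16 (exact binomial test, adjusted p = 8.75e-27). With library totals in place of TMM the log2 ratio by counts was 0.05. By contrast, its TPM was lower in replicate 2, at a log2 ratio of -0.17. The effective length by which its counts were divided was 785 bases in replicate 1 and 923 bases in replicate 2, following the models the reads were assigned to. For 3 genes the ratio by TPM exceeded the ratio by counts: H2afv at 2.00 against 1.61, H3f3b at 1.40 against 1.24 and H2afz at 1.35 against 1.19.

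**Figure D2:**
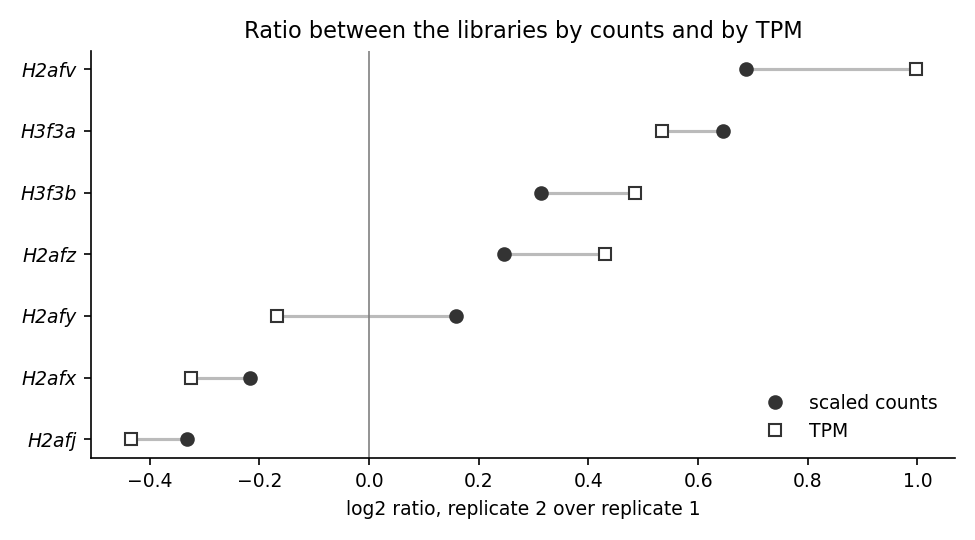
Log2 ratio of replicate 2 to replicate 1 for the 7 detected variant genes. Filled circles are from counts scaled by TMM and open squares from TPM, joined by a grey line for each gene. The 2 measures lie on opposite sides of 0 for H2afy, at 0.16 and -0.17, and on the same side for the other genes.

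The transcript tables divide each gene's TPM among its models, and 5 variant genes have more than 1 model. The model with the largest share was the same in both libraries for all 5 genes. In H3f3b, H2afz and H2afv that model is labelled coding, and in H3f3a and H2afy it is not.

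In H3f3a the model H3f3a-202, labelled as a retained intron, took 81.9% and 83.7% of the gene's TPM, and the coding model H3f3a-201 took 16.8% and 15.9%. H3f3a-202 is 807 bases long in 3 exons, of which 438 bases lie in exons of coding models and 369 in no other model. It holds the start codon but not the end of the coding sequence. Models that hold the last coding base took 19.9% and 17.9% of the counts of H3f3a.

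In H2afy the model H2afy-204, labelled as a processed transcript, took 88.0% and 76.2% of TPM. The coding model H2afy-201 took 5.94% and 16.93%, and the retained-intron model H2afy-206 took 5.79% and 6.40%. H2afy-204 is 889 bases long and 803 of them lie in exons of coding models, so most of its reads could also be assigned to those. By counts H2afy-204 held 81.9% in replicate 1 and 61.2% in replicate 2, and the models with the last coding base held 14.7% and 35.4%.

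Among 6302 detected protein-coding genes with 2 or more models, the same model without a coding label led in both libraries in 20.7%. This was so for 2 of the 5 variant genes, H3f3a and H2afy. The median share of TPM in models without a coding label was 6.25% and 6.66% over those genes, and it was 81.9% and 83.7% in H3f3a, 93.9% and 82.9% in H2afy, 21.4% and 46.8% in H3f3b and 8.33% and 25.8% in H2afz. H2afv has none. These shares rest on the authors' division of reads among overlapping models.

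In H3f3b the coding model H3f3b-201 took 78.6% of the gene's TPM in the first library and 53.2% in the second. H3f3b-204, a processed transcript that holds the whole coding sequence, took 5.50% and 38.0%. In H2afv the longer coding model H2afv-202 took 87.4% and 57.1%, and the shorter H2afv-201, of 519 bases, took 12.6% and 42.9%. A model's share moved by at least 20 percentage points between the libraries in these 2 of the 5 variant genes, against 23.1% of the 6302 genes, and the largest shift in a gene had a median of 7.73 points over those.

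In H2afz the coding models H2afz-206 and H2afz-207 took 45.2% and 43.4% in replicate 1 and 46.3% and 26.2% in replicate 2. The processed transcript H2afz-205, of 361 bases that all lie in exons of coding models, took 3.67% and 22.9%. By counts H2afz-207 led in both libraries. With the coding label as the measure, H2afz held 2713 and 2959 TPM, a smaller gap between the libraries than in its total TPM.

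**Figure D3:**
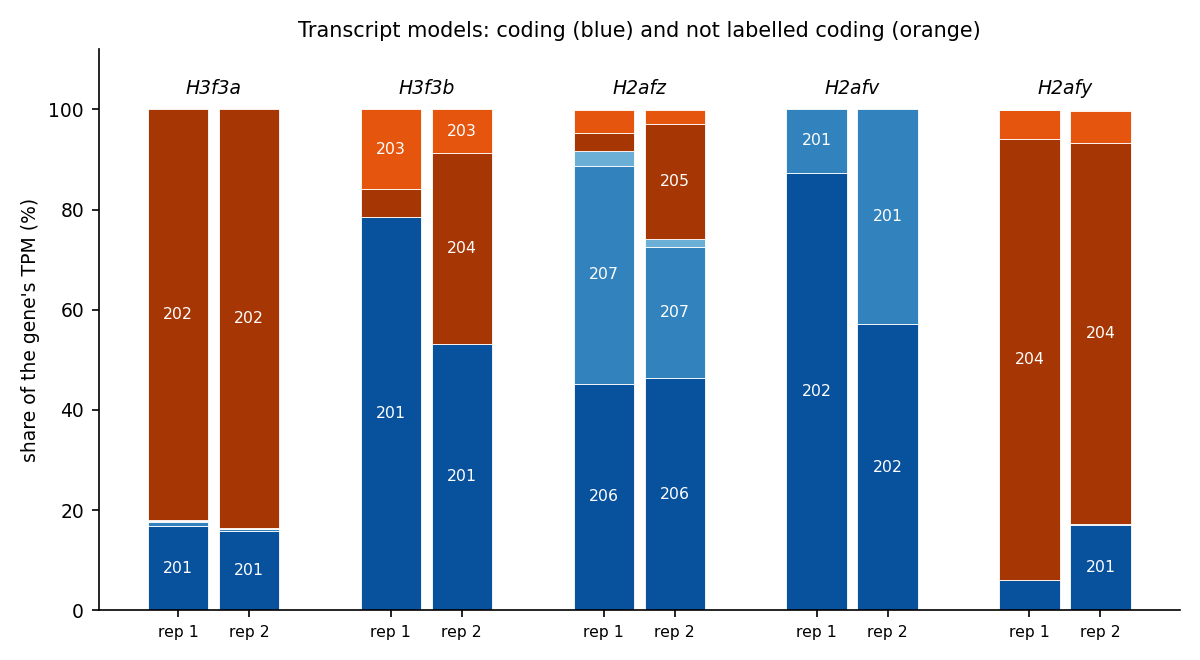
Share of each gene's TPM (percent) taken by its transcript models in replicate 1 and replicate 2, for the 5 variant genes with more than 1 model, with coding models in blue and models without a coding label in orange. Numbers are model names, printed where the share is at least 8%. H3f3a-202 and H2afy-204 fill most of their bars, and the bars of H3f3b and H2afv differ most between the libraries.

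MacroH2A1 is known for a pair of mutually exclusive exons that set whether its macro domain can bind ADP-ribose metabolites, as macroH2A1.1 does and macroH2A1.2 does not. The coding models H2afy-201 and H2afy-202 each have 9 exons, and the sixth differs between them. It spans chr13:56089758-56089857 in H2afy-201 (100 bases) and chr13:56088252-56088342 in H2afy-202 (91 bases), on the minus strand of mm10. Both are wholly coding and are printed as transcribed, because they are the only coding bases in which the models differ.
H2afy-201, exon 6: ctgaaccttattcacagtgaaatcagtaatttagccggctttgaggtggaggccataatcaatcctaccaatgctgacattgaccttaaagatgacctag
H2afy-202, exon 6: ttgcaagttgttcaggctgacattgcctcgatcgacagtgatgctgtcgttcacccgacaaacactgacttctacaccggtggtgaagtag
H2afy-201 received 3210 estimated counts in replicate 1 and 6118 in replicate 2. H2afy-202 received 82.8 and 70.3, with a posterior SD of 21.3 and 27.7 counts from the authors' quantification. H2afy-202 thus took 2.51% and 1.14% of the counts of both coding models, and H2afy-201 took the rest. The model names do not say which of them encodes macroH2A1.1, and neither model was assigned to a protein form here. The order in which models and proteins are named is therefore not a match between them. H2afy-202 is 2037 bases long in the deposited tables and 1933 bases in M21, which gives the exons here, so the model counted was not identical to the one whose exon is printed. H2afy-204 spans 56095556 to 56135530 and ends before either exon, so its reads bear on neither.

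Factors listed as regulators of this choice are the RNA helicases Ddx5 and Ddx17 and the splicing factor Mbnl1, among others. Ddx5 had 1945 and 1646 TPM, Mbnl1 240 and 165 TPM and Ddx17 71.3 and 54.9 TPM. Of the 5 genes listed 4 were detected, 1 was called higher in replicate 2 and 4 in replicate 1. Of all genes tested 34.7% were called higher in replicate 2 and 34.4% in replicate 1.

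The histone stem-loop consensus was looked for in the variant genes, since cluster mRNAs end in it. A search of the transcript strand of all coding models for this consensus, with stem arms of 6 bases and a loop of 4 bases, found a match in 1 of the 10 variant genes, H2afx, in 44 of 64 cluster genes (68.75%) and in 102 of 21901 protein-coding genes of GENCODE M21 (0.466%). The match is a description of letters, not evidence of processing there. The RNA sequenced is described as polyadenylated, so any H2afx RNA without a poly(A) tail would be under-counted. It lies at chr9:44335240-44335255 on the plus strand, 46 bases after the stop codon. The H2afx model runs on for 822 bases after it. Among cluster genes, the model of Hist1h4d runs on for 770 bases and that of Hist1h2ap, the one with the most TPM, for 3 bases. A long stretch after the match is thus not particular to H2afx. The matches are printed with the loop in capitals, to show that H2afx has the same arms as the H4 cluster gene Hist1h4d.
H2afx: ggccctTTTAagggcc
Hist1h4d: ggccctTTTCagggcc
Hist1h2ap: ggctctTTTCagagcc
Factors of stem-loop processing were detected in 6 of 7 cases, with Slbp, the stem-loop binding protein, at 295 and 198 TPM, the U7 particle protein gene Lsm11 at 46.3 and 39.9 TPM and the exonuclease gene Eri1 at 16.9 and 9.74 TPM. Of the 7 genes 2 were called higher in replicate 2 and 3 in replicate 1, against 34.7% and 34.4% of all genes tested.

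Set against the detected replication-dependent cluster genes, the variants made up 14.8% of histone TPM in replicate 1 and 25.1% in replicate 2, on average 19.96 ± 7.31% (SD, n = 2). The shares differed by family. In the H3 family the 2 variant genes held 82.2% and 88.1% of TPM, and the highest cluster gene, Hist1h3h, had 54.3 and 53.5 TPM. In the H2A family the variants held 12.2% and 20.6%. By mean TPM H2afz stood below 3 cluster genes there, and in replicate 2 it stood below Hist1h2ap alone. These 3 were Hist1h2ap at 19715 and 10326 TPM, Hist1h2ad at 5663 and 3043 TPM and Hist1h2ao at 4680 and 3926 TPM. Without these 3 genes, an alternative added after the values were seen, the variants made up 63.1 ± 1.18% of histone TPM (SD, n = 2). In the H1 family the variants held 0.0297% and 0%, against 67.2 and 62.1 TPM in cluster H1 genes, led by Hist1h1c at 37.2 and 32.8 TPM. The H2B and H4 families have no variant gene in the list. Cluster genes resemble each other closely, so the authors' counting could split reads among them and single values are uncertain. As their mRNAs mostly lack poly(A) tails, these shares describe the RNA sequenced and not the histones made.

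**Figure D4:**
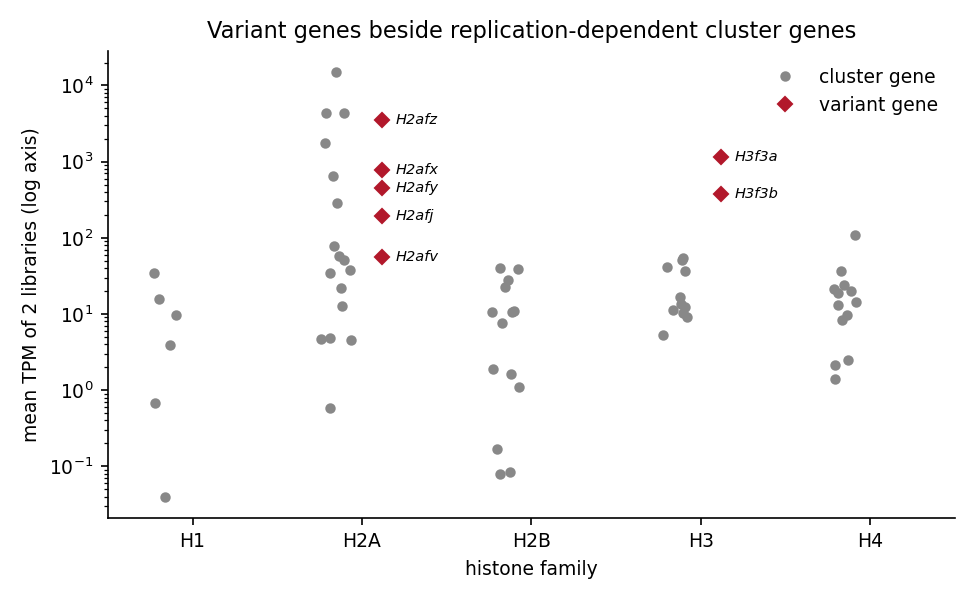
Mean TPM over 2 libraries (log axis) of replication-dependent cluster genes (grey circles) and detected variant genes (red diamonds), by histone family. Both H3 variant genes lie above every H3 cluster gene, and the H2A variants lie among the H2A cluster genes. The points are 61 cluster genes, and 3 with a mean below 0.03 TPM are not drawn.

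Of 57 cluster genes tested 12 were called higher in replicate 2 and 21 in replicate 1, against 34.7% and 34.4% of all genes. Those beyond a log2 ratio of 1 were Hist1h1a at 3.27 (4 and 27 counts), Hist3h2a at 1.46 (322 and 620 counts), Hist1h2ai at 1.23 (2592 and 4250 counts) and Hist2h2ac at -1.25 (143 and 42 counts). No variant gene differed by as much. Of 9 other histone genes outside the clusters 1 was detected, Cenpa, the gene of the centromeric H3, at 274 and 197 TPM with a log2 ratio of -0.37. H3f3c, labelled a processed pseudogene, had 0.57 and 0.86 TPM, the oocyte linker histone gene H1foo had 1 count in all, and 6 of the 9 had no count.

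Genes that place or remove the variant histones were all detected, 21 of 21, with a median of 53.9 TPM. The highest were Dek, whose product acts as an H3.3 chaperone, at 1274 and 875 TPM, Ruvbl2, an ATPase of the complexes that exchange H2A.Z, at 572 and 566 TPM, and Anp32e, which removes H2A.Z, at 359 and 453 TPM. In this list 12 genes were called higher in replicate 2 and 7 in replicate 1, against 34.7% and 34.4% of all genes tested. None was beyond a log2 ratio of 1, whereas 9.13% of all genes were called and at least 2-fold apart.

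General histone chaperones were detected in 9 of 9 cases with a median of 70.7 TPM. Of these 4 were called higher in replicate 2 and 5 in replicate 1, against 34.7% and 34.4% of all genes tested. Set had 768 and 636 TPM, Nap1l1, a chaperone of H2A and H2B, 245 and 194 TPM, and Npm1, nucleophosmin, 223 and 145 TPM. Nasp, a chaperone of H3 and H4, had 589 and 1341 counts, a log2 ratio of 1.70.

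Of 7 kinases and readers of H2A.X 6 were detected. The median of all 7 was 7.32 TPM, well below H2afx itself. Baz1b, a tyrosine kinase of H2A.X, had 59.4 and 55.8 TPM, Trp53bp1, recruited to DNA breaks, 19.4 and 21.5 TPM, and Mdc1, which binds phosphorylated H2A.X, 10.8 and 15.1 TPM. In this list 4 were called higher in replicate 2 and 1 in replicate 1, against 34.7% and 34.4% of all genes tested. Eya3, a phosphatase of H2A.X, had a log2 ratio of 1.15 (482 and 750 counts).

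Sequence shared with other genes limits how far reads can be assigned to a variant gene. Of the stretches of 31 bases in its transcripts, H2afz shared 42.3% and H3f3a 30.0% with other genes, the highest among the 7 detected, and H2afv shared 0.981%, the lowest. Matches on either strand were counted. The gene that shared the most stretches with H2afz was the coding gene Tmcc1, with 639, at 0.59 and 0.63 TPM. The processed pseudogene Gm8203, wholly contained in H2afz sequence, shared 357 and held 5.66 and 17.93 TPM. Among 9 genes that share at least 50% of their stretches with H3f3a, those with a value held 0.88 and 0.86 TPM in all. Gm6421, Gm10257, Gm6749 and Gm45080, also among the 9, were not among the genes counted and have no value. With the counted copies added the H3f3a share of its pair was 75.548%, against 75.534% without. H2afx shared 11.2% and H2afj 10.01%, each with cluster genes of the H2A family among others. Hist1h2ap, with 383764 and 155506 counts, shared 120 stretches with H2afx and 45 with H2afj. Such cluster genes share less than 50% of their own stretches and are not among the added copies. The effect of this sharing on H2afx and H2afj was not tested.

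Genes on the opposite strand overlap several variant genes, and the use of strand in counting is not stated. H3f3aos, antisense to H3f3a, had 37 and 39 counts. Aifm2, which overlaps H2afy2, had 157 and 131 counts. Gm5577, antisense to H1fx, had 1 and 0 counts, so neither H1fx nor its antisense partner was detected.

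RefSeq promoter windows on GRCm38.p6, from 250 bases before to 50 after the start, were found for 9 of the 10 variant genes, all but H2afx. A search of both strands found CCAAT in 6 of 9 (41.1% of 27025 genes) and GGGCGG in 7 of 9 (38.2%). TATAAA was found in 1 of 9, H3f3b (15.7%), and GATAA in 0 of 9 (28.4%). GATAA is 1 sequence that GATA factors bind, and other sequences with GATA were not searched. The windows held 17 to 40 CpG pairs with a median of 29, against a median of 8 over all genes.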

How the data were processed

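Paired-end RNA-seq of RNA described as polyadenylated gave 1 gene table and 1 transcript table for each of 2 libraries. Per the file headers the tables hold expected counts, estimates with decimals, besides posterior mean counts with a posterior SD. TPM and FPKM were deposited by the authors, and isoform shares are deposited as a percent of the gene's TPM. Per the labels, reads were placed on mm10, and per the deposited readme files genes follow GENCODE M4. The aligner, the quantifier and the use of strand were not given in the sources used here.

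Names, classes, coordinates and transcript sequences came from GENCODE M21 on the same build, and 42462 of 43346 Ensembl genes matched by identifier without version. Model classes are those of M21, and 2.08% of the models of the 6302 genes had no M21 entry and counted as not labelled coding. Genes without a name held 0.277% and 0.291% of counts, and 26248 numeric rows and 97 spike-ins, which name no gene, held 0 and 1 count in the 2 libraries and were left out. The variant genes and the gene lists were chosen with earlier results of these data known. Every variant gene is described, and from each other list the 3 highest by mean TPM and each gene called with an absolute log2 ratio over 1.

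Expected counts were rounded for the binomial test (scipy 1.17.1), with TMM from edgeR 4.0.16 in R 4.3.3 and Benjamini-Hochberg adjustment over 10863 genes averaging 10 counts or more. No test between conditions exists, and no likeness of patterns was computed over 2 libraries. On simulated counts with counting error alone for the same 10863 genes, replicate 2 against replicate 1, the test called 84% of genes raised 2-fold, 82% lowered to 0.5, 100% raised 4-fold and 90% lowered to 0.25, and 0.0750% of 10663 unchanged genes. Alternatives were posterior means, FPKM, DESeq2 1.42.0 size factors, library totals, other count minimums, added variation, added copies, and each library alone. The totals of 68901065 and 51923117 counts make counting error small beside the spread between the libraries for detected variant genes.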

Additional observations from a re-analysis of the deposited data

How the results depend on the processing

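With 2 libraries of 1 group, the SD rests on 2 values and no condition can be compared. Posterior means, FPKM and added copies left the share of all TPM in the variant genes within 1 SD, and the share was 0.483% with counts divided by the length of 1 coding model and 0.436% with coding models only. The H3f3a share of its pair was 58.9% by counts, 78.1% with the length of 1 coding model and 45.1% with coding models only, and the H2afz share of its pair was 96.0% by counts. The H2afy share of its pair was 99.997% by posterior mean TPM and 99.983% with coding models only. The variant share of histone TPM was 63.1% without Hist1h2ap, Hist1h2ad and Hist1h2ao. By counts, H3f3a-202 held 81.0% and H2afy-204 71.6% of their genes. With a coefficient of variation of 0.1 added, 2 variant genes were called, 2 higher in replicate 2 and 0 in replicate 1, against 7, 5 and 2; of all genes 18.8% were called, 1537 higher in replicate 2 and 509 in replicate 1. The counts of 7, 5 and 2 variant genes did not change with library totals, DESeq2 size factors, other count minimums or posterior mean counts. The counts over all genes differed between those settings. With 1 library left out, the share of all TPM ranged from 0.583 to 0.716%, the H3f3a share from 75.2 to 75.8%, the H2afz share from 98.2 to 98.7%, the H2afy share from 99.998 to 100%, the variant share of histone TPM from 14.8 to 25.1%, H3f3a-202 from 81.9 to 83.7% and H2afy-204 from 76.2 to 88.0%. No paired analysis was possible because the libraries form 1 group. Depth limits H2afy2, H1f0 and H1fx, at 0 or 1 count.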
